A study of Bos taurus with 16 samples.

Results

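The genes KIF14, KIF26A, NEURL1, KLHL35, RASIP1 and SEMA4B were followed through the RRBS profiles of bovine endometrial cells. They were chosen by a readout of the same data, a higher mean methylation over the sites of the gene in MET_noP than in CON_noP. The deposited sites of exactly these gene symbols were taken, which gave 317 of 199395 sites and 6 of 10781 annotated genes. The rule asked for a higher mean and set no lower limit to the difference. The paper names the same 6 genes among those more methylated at several CpG sites in MET_noP than in CON_noP. The choice was thus not independent of the size of the difference. All values of MET_noP against CON_noP are therefore given as a description without a test.

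RRBS (reduced representation bisulfite sequencing) reads the cytosines of DNA fragments cut by MspI, after a bisulfite treatment that converts unmethylated cytosines only. The cells were brushed from the uterine lining of multiparous Holstein-Friesian cows after insemination, which took place between day 50 and day 64 postpartum, with 4 to 8 h from insemination to brushing. Cows on the control diet (CON) or on rumen-protected methionine (MET, offered from day 12 postpartum) were sorted afterwards, by ultrasonography, into those that became pregnant (P) and those that did not (noP). CON_P, CON_noP, MET_P and MET_noP had 4 libraries each, numbered in the deposited table from S12 to S31. All cows were thus inseminated, and the pregnancy groups were formed after sampling rather than by assignment. The number of cows behind a library is not given, so p-values measure only the spread between these libraries, which may in part be technical. The table holds percentages without read counts, so the depth behind a value is unknown beyond the minimum of 10 calls per position that was required when the table was made. By the paper's averages, raw reads per replicate were most numerous in MET_P and fewest in CON_P. The part of depth in the comparison of these groups was not tested.

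Methionine is the precursor of S-adenosylmethionine, which donates the methyl group when DNA methyltransferases methylate a cytosine next to a guanine (a CpG site). CpG-rich promoters of active genes usually carry little methylation, whereas the bodies of genes and most scattered CpG sites carry much. The 6 genes have unlike roles. KIF14 is a kinesin that acts at the end of cell division, and KIF26A is an atypical kinesin. NEURL1 is a neuralized-type ubiquitin ligase that acts on ligands of Notch. KLHL35 belongs to the kelch-like proteins, many of which bring substrates to cullin-based ubiquitin ligases. RASIP1 binds RAP1 and acts in endothelial cell junctions and vessel formation, and SEMA4B is a membrane-bound semaphorin, a ligand family read by plexins.

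In MET_noP the gene mean was above that of CON_noP by 21.1 percentage points in KIF14, 18.6 in NEURL1, 13.6 in KLHL35, 11.3 in RASIP1, 9.79 in SEMA4B and 5.32 in KIF26A. Among 8719 genes with at least 2 sites, these differences ranked 5, 7, 45, 108, 168 and 719 from the top, and the largest of any gene was 30.97. A higher mean in MET_noP was the more frequent direction in the whole table too, with 5498 genes (63.1%). Only in RASIP1 did all 4 MET_noP libraries lie above all 4 CON_noP libraries, a pattern seen in 2.87% of all genes. Since the choice used this contrast, nothing is read from these counts. MET_P against CON_P shares no library with it. There 3 of the 6 genes had a higher mean (NEURL1, RASIP1, KIF26A) and 3 a lower one (KIF14, SEMA4B, KLHL35), and the groups overlapped in every gene.

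**Figure D1:**
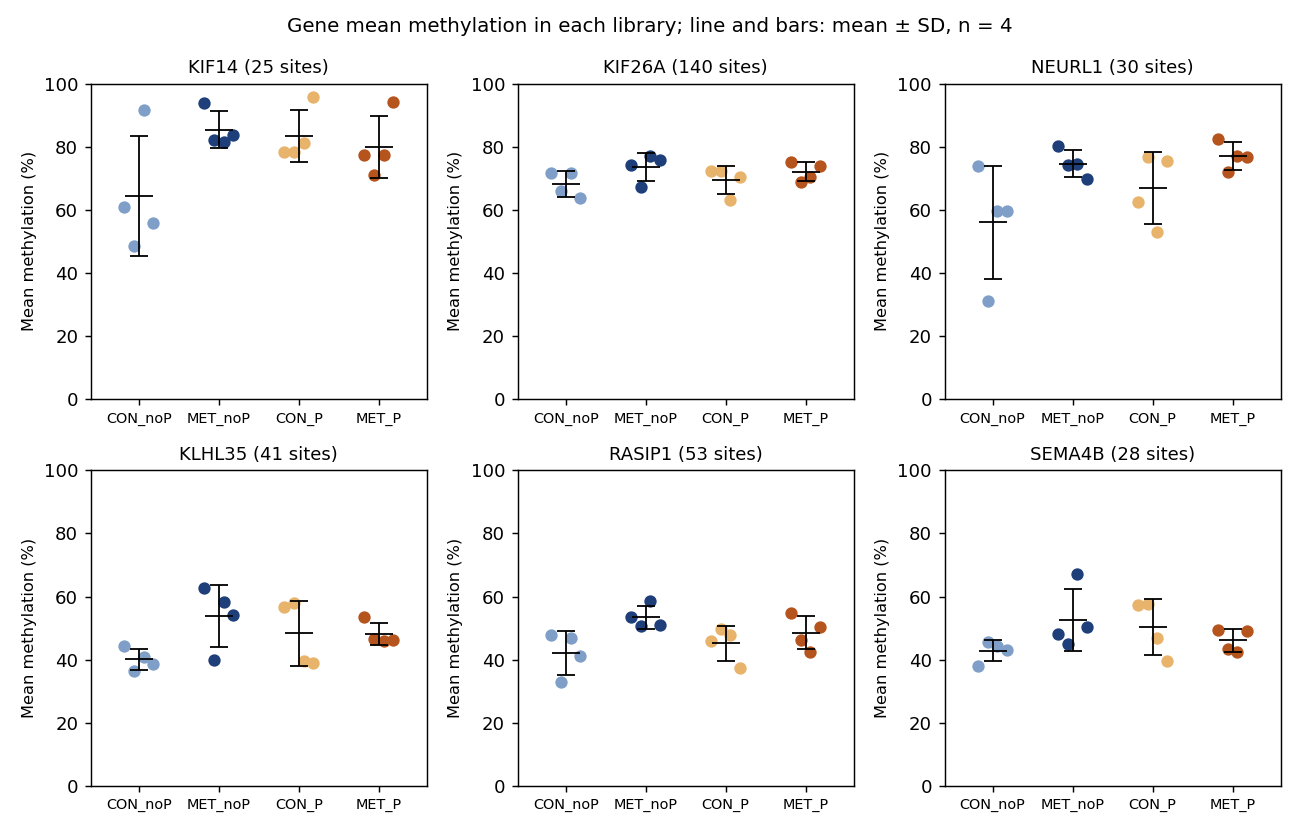
Mean methylation (%) over the sites of each gene in each of the 16 libraries (points), by group, with the mean and SD of 4 libraries in black. CON_noP has the lowest group mean in all 6 panels, while the MET_P and CON_P points overlap in all 6.

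The 317 sites fell into 43 runs with no gap above 200 bp. Of these, 30 had at least 3 sites and are called clusters here, and 13 had 1 or 2 sites. The deposited positions are those of the bovine build ARS-UCD1.2, and the table places each site in a gene without telling exon from intron. For each gene the cluster with the largest difference between MET_noP and CON_noP is described with its library values. These 6 clusters held 118 sites, and all 118 had a higher mean in MET_noP. The other 199 sites had a higher mean in MET_noP in 145 cases (72.9%), beside 57.3% of all sites of the table. Their median difference was 2.45 points against 18.1 in the 6 clusters. The genes and the 6 clusters were both picked by this difference, so nothing is read from these counts and medians.

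KIF14 (ENSBTAG00000021874) had 25 sites on chromosome 16 between 79260907 and 79277654. Its gene mean was 64.2% ± 18.99 in CON_noP, 85.4% ± 5.83 in MET_noP, 83.4% ± 8.33 in CON_P and 79.97% ± 9.83 in MET_P (SD, n = 4). CON_noP was thus the group that stood lower, below both the methionine groups and CON_P. Within CON_noP the libraries were far apart, at 48.5, 56.0, 60.8 and 91.7%. The highest of these, S24, lay above 3 of the 4 MET_noP libraries, which were at 81.5, 82.2, 83.8 and 94.0%. Leaving out S24 moved the difference from 21.1 to 30.3 points, and leaving out S16 moved it to 15.9 points. In CON_P the libraries were at 78.3, 78.4, 81.1 and 95.7%, and in MET_P at 71.1, 77.3, 77.4 and 94.0%, so that in each of the 4 groups 1 library stood more than 10 points above the others.

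A pair of neighbouring clusters carried the KIF14 difference. The first, at 79260907 to 79261004, had 14 sites and the second, at 79261299 to 79261338, had 8 sites. The differences between MET_noP and CON_noP were 22.8 and 25.9 points. In the second cluster the CON_noP libraries were at 50.3, 54.9, 60.1 and 94.6% and the MET_noP libraries at 85.1, 88.8, 91.7 and 98.1%. The groups overlapped through S24 alone. CON_P had 75.0, 88.6, 89.8 and 97.7% and MET_P had 75.0, 75.8, 90.2 and 98.6%, which gave a difference of -2.87 points. The limma test of M values (log2 ratios of methylated to unmethylated percent) gave an adjusted p of 0.971 there. Another cluster of 3 sites, farther along at 79277603 to 79277654, was near full methylation in all libraries, from 87.3 to 98.0%. It was the only one of the 30 clusters with an unadjusted p under 0.05 in MET_P against CON_P, with a difference of -4.81 points (limma adjusted p = 0.754), where 6.56% of all clusters of the table passed that limit.

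KIF26A (ENSBTAG00000021904), the other kinesin, had 140 sites in 24 runs over 41263 bp of chromosome 21. Its gene mean differed least, at 68.3% ± 4.09 in CON_noP and 73.6% ± 4.42 in MET_noP, with 69.5% ± 4.40 in CON_P and 72.0% ± 2.97 in MET_P (SD, n = 4). The levels along the gene were far from even. The 5 runs between 68660507 and 68663504 were at 5.40 to 13.2% in every group, and the cluster at 68693129 to 68693369 was at 98.0 to 98.4%. In neither stretch did MET_noP and CON_noP differ by more than 5 points.

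The difference in KIF26A lay mostly at the far end of the measured stretch. The cluster at 68699919 to 68700083 held 17 sites, 12.1% of those of the gene, and 42.5% of the summed difference. The CON_noP libraries were there at 18.7, 33.8, 45.0 and 51.4% and the MET_noP libraries at 35.5, 56.8, 65.4 and 65.5%. The groups overlapped, since S17 of MET_noP lay below 2 of the CON_noP libraries. CON_P stood at 28.1, 39.2, 45.5 and 51.5% and MET_P at 45.0, 45.2, 53.6 and 55.7%, a difference of 8.83 points that did not pass the test (limma adjusted p = 0.774). The next cluster, at 68700540 to 68700872 with 23 sites, added another 32.1% of the sum, with differences of 10.4 points without and 5.34 points with pregnancy. Away from that end, a pair of sites at 68685580 and 68685602 stood out, at 29.7% in CON_noP and 54.9% in MET_noP. In the pregnant cows the same pair was at 35.1% in CON_P and 52.9% in MET_P. It was chosen after its values were seen, and runs of 1 or 2 sites were not tested as clusters.

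**Figure D2:**
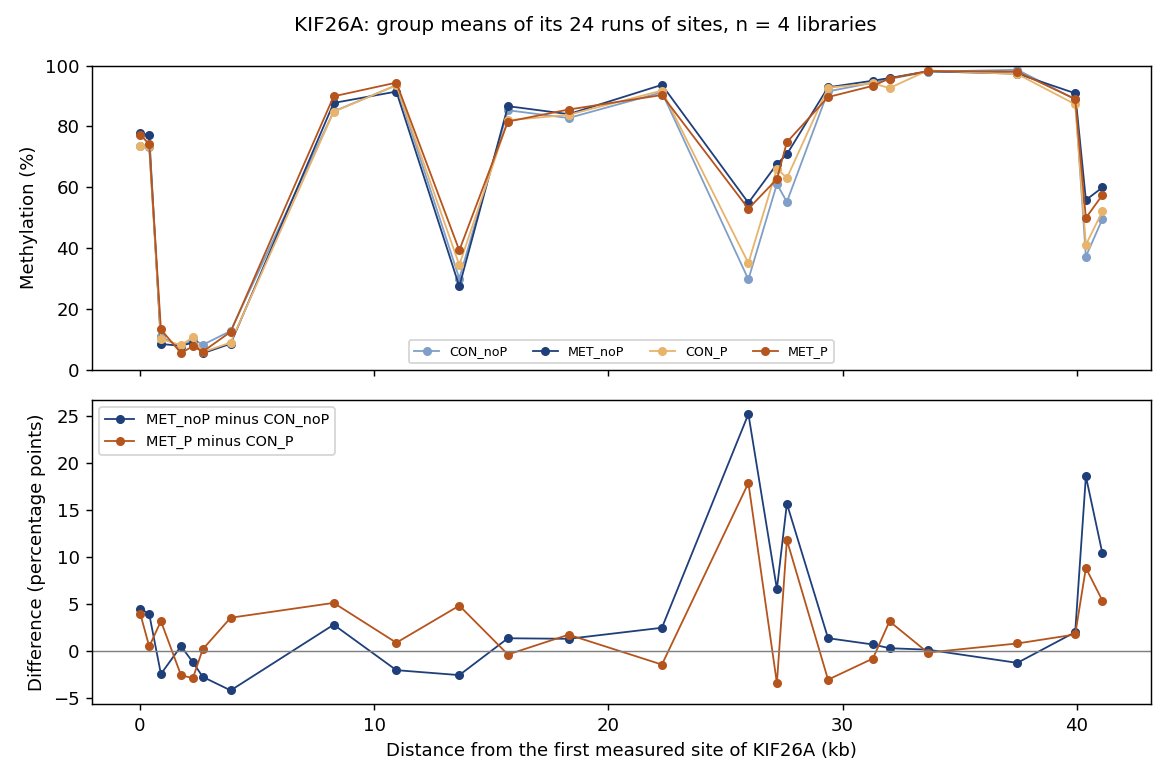
KIF26A along the gene, with distance from its first measured site in kb on the horizontal axis. The upper panel shows the group mean methylation (%) of the 24 runs of sites (n = 4 libraries per point), and the lower panel the difference in percentage points. Differences between MET_noP and CON_noP reach 25.2 points in a run of 2 sites and 18.6 points in the cluster next to the last, with 15.7 points in another run of 2 sites and 10.4 points in the last cluster. In all other runs the difference is smaller, from -4.22 to 6.57 points.

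NEURL1 (ENSBTAG00000003741) had 30 sites on chromosome 26, of which 27 lay in one cluster of 198 bp at 24154082 to 24154279. Its gene mean was 56.0% ± 17.9 in CON_noP, 74.6% ± 4.38 in MET_noP, 66.9% ± 11.3 in CON_P and 77.04% ± 4.36 in MET_P (SD, n = 4). NEURL1 was the only one of the 6 genes in which MET_P, not MET_noP, had the highest mean. In the cluster, CON_noP was at 32.3, 62.6, 62.8 and 78.2% and MET_noP at 73.8, 78.7, 78.8 and 85.9%. The lowest CON_noP library, S16, stood far below the other 3, and without it the gene difference moved from 18.6 to 10.3 points. CON_P stood at 55.5, 66.2, 79.9 and 82.1% and MET_P at 76.0, 81.2, 81.5 and 88.1%. The methionine libraries were thus close together with either outcome, and the control libraries were spread over a wider range that reached into theirs.

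The diet difference in NEURL1 had the same direction with pregnancy, 10.8 points in the cluster and 10.1 points over the gene. All 30 sites had a higher mean in MET_P than in CON_P. Neither value passed the test, with a limma adjusted p of 0.761 for the cluster and 0.706 for the gene, and a two-sided exact permutation test of the gene mean over the 8 libraries gave p = 0.171. The smallest p that this test can give with 4 libraries against 4 is 0.0286. Single sites with an unadjusted p under 0.05 numbered 6 of 30, all between 24154086 and 24154149 and all higher in MET_P, by 12.5 to 15.8 points. Of all sites measured, 5.83% passed that limit and 3.06% passed it and were higher. The 6 sites share reads and are not independent of each other.

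KLHL35 (ENSBTAG00000015087) had 41 sites within 528 bp of chromosome 15, and all 41 were higher in MET_noP than in CON_noP. Its gene mean was 40.1% ± 3.33 in CON_noP, 53.7% ± 9.87 in MET_noP, 48.3% ± 10.4 in CON_P and 48.1% ± 3.59 in MET_P (SD, n = 4). The sites formed a low and a high cluster. In the low one, at 54609958 to 54610028 with 23 sites, CON_noP was at 8.08, 9.69, 13.8 and 25.3% and MET_noP at 13.9, 33.5, 40.0 and 44.2%. S17 was the MET_noP library that fell among the control values, and without it the gene difference moved from 13.6 to 18.2 points. CON_P had 11.1, 13.1, 36.6 and 38.6%, a split into a lower and a higher pair, and MET_P had 18.8, 19.6, 21.6 and 28.8%. The difference between MET_P and CON_P was -2.61 points (limma adjusted p = 0.992). The high cluster, at 54610363 to 54610485 with 18 sites, was at 73.1% in CON_noP and 80.3% in MET_noP.

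RASIP1 (ENSBTAG00000011619) had 53 sites over 7767 bp of chromosome 18. Its gene mean was 42.1% ± 6.84 in CON_noP, 53.4% ± 3.62 in MET_noP, 45.2% ± 5.51 in CON_P and 48.5% ± 5.27 in MET_P (SD, n = 4). The cluster at 55364819 to 55364900 held 27 sites, with CON_noP at 18.3, 30.4, 36.2 and 41.5% and MET_noP at 45.4, 46.5, 51.6 and 65.4%. The groups did not overlap there, and they did not overlap at 14 of its 27 sites, where 1.85% of all sites of the table had all MET_noP libraries above all CON_noP libraries. CON_P was at 23.1, 43.4, 44.1 and 48.1% and MET_P at 33.3, 39.7, 43.9 and 51.5%, a difference of 2.44 points (limma adjusted p = 0.936).

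Not all of RASIP1 had the same direction. The second cluster, at 55365195 to 55365229, was higher in MET_noP, with 70.7% in CON_noP and 81.0% in MET_noP and no overlap. In the cluster at 55370716 to 55370765 all 4 MET_noP libraries lay below all 4 CON_noP libraries, at 44.6% against 51.9%. Of all 26894 clusters of the table, 602 had all MET_noP libraries above all CON_noP libraries and 264 had them all below. The 2 other clusters, which start at 55371665 and 55372519, had differences of -2.58 and -6.64 points, with overlap. All 3 of these lower clusters were higher in MET_P than in CON_P, by 3.81 to 4.43 points, and none passed the test.

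SEMA4B (ENSBTAG00000021273) had 28 sites over 13779 bp of chromosome 21. Its gene mean was 42.8% ± 3.34 in CON_noP, 52.6% ± 9.84 in MET_noP, 50.3% ± 8.74 in CON_P and 46.1% ± 3.71 in MET_P (SD, n = 4). The difference lay in the cluster at 21598346 to 21598517 with 16 sites, where CON_noP was at 5.80, 13.5, 14.6 and 19.9% and MET_noP at 17.7, 21.6, 25.1 and 49.9%. A single library, S25, was far above the rest of MET_noP, and without it the gene difference moved from 9.79 to 4.99 points. In the pregnant cows the order was the opposite, with CON_P at 7.36, 21.1, 37.3 and 38.5% and MET_P at 12.6, 13.2, 22.0 and 23.7%, a difference of -8.18 points (limma adjusted p = 0.862). MET_P lay wholly within the range of CON_P. The clusters at 21607769 to 21607835 and 21612063 to 21612124 were at 94.0 to 96.5% in every group.

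**Figure D3:**
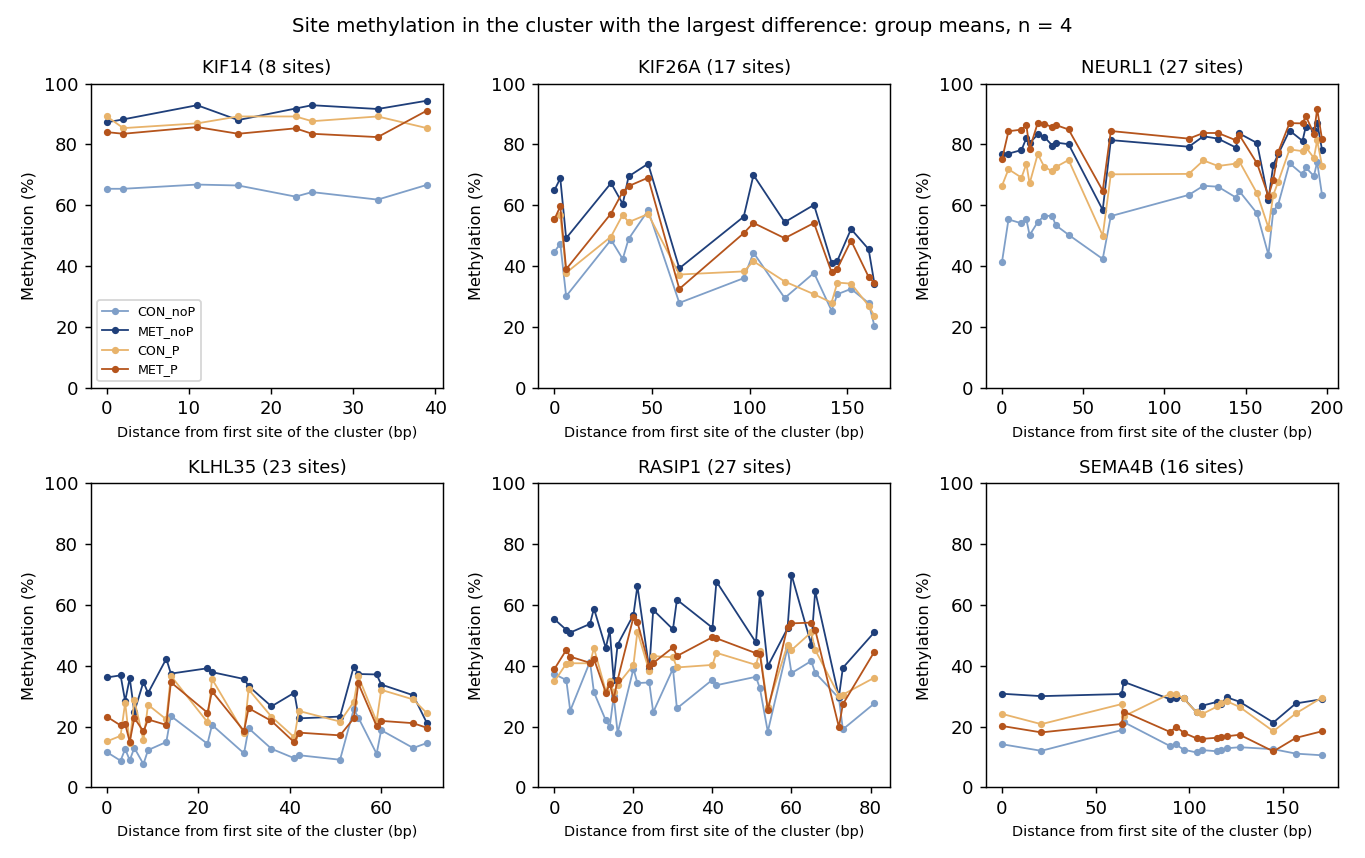
Group mean methylation (%) of each site in the cluster of each gene with the largest difference between MET_noP and CON_noP, against the distance from its first site in bp (n = 4 libraries per point). MET_noP lies above CON_noP at all 118 sites, the difference by which the clusters were picked. By cluster mean, the 2 pregnant groups lie between them in every gene but NEURL1. There MET_P lies beside or above MET_noP at most sites.

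Across all 317 sites, 15 had an unadjusted p under 0.05 in MET_P against CON_P, 11 of them higher and 4 lower in MET_P. That is 4.73% of the sites, under the share of the whole table. None had an adjusted p under 0.05, nor did any site of the table (0%), and the lowest adjusted p of a member site was 0.827. The paper did call sites in the same contrast, by a logistic regression that was not repeated here. None of the 6 gene means had an unadjusted p under 0.05, against 7.26% of all genes, and the lowest adjusted p was 0.706. By two-sided exact permutation tests over the 8 libraries, p was 0.457 for KIF14, 0.429 for KIF26A, 1 for KLHL35, 0.429 for RASIP1 and 0.4 for SEMA4B. On the log2 scale of M values the differences between MET_P and CON_P were -0.34 ± 0.69 in KIF14, 0.17 ± 0.18 in KIF26A, 0.68 ± 0.36 in NEURL1, -0.01 ± 0.29 in KLHL35, 0.19 ± 0.21 in RASIP1 and -0.24 ± 0.25 in SEMA4B (SE, n = 4). Single libraries moved these values. The difference was 0.39 in NEURL1 and 0.03 in KIF26A without S26, 0.035 in RASIP1 without S30 and -0.10 in SEMA4B without S18. NEURL1 was at 0.90 without S18, where its unadjusted p fell under 0.05 and its adjusted p was 0.567. Centring the libraries moved the median of all genes by -0.13, and the differences were then 0.039 in KIF26A and 0.059 in RASIP1. A p that misses the threshold does not show that the diets were alike in the pregnant cows.

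**Figure D4:**
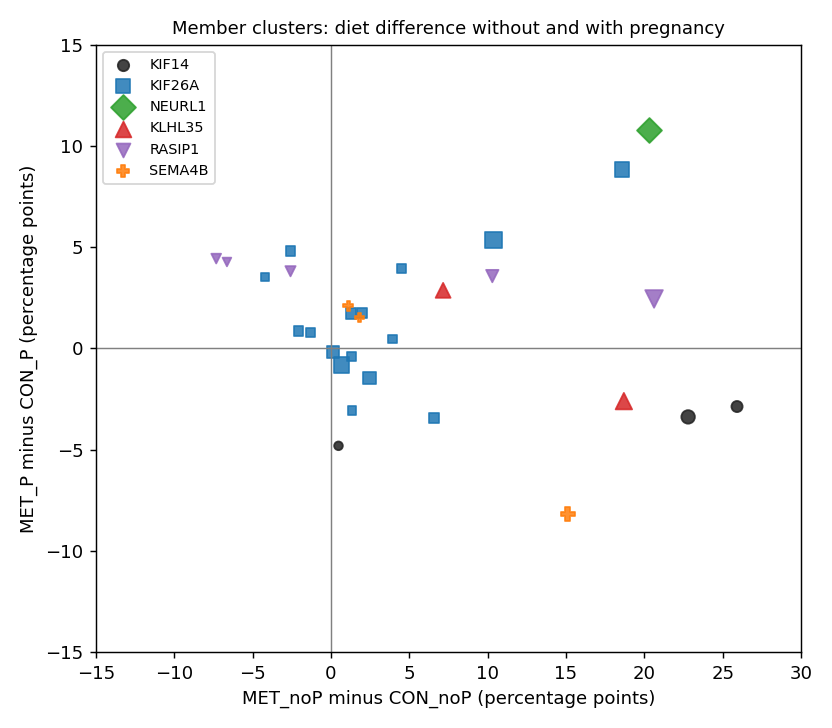
Difference in mean methylation (percentage points) between methionine and control diet in the 30 clusters of the 6 genes, without pregnancy (horizontal, the contrast that chose the genes) and with pregnancy (vertical), with larger symbols for more sites. The cluster of NEURL1 and the 2 clusters at the end of KIF26A lie in the upper right. The first 2 clusters of RASIP1 and the high cluster of KLHL35 lie in that quadrant too, nearer to 0 on the vertical axis. The 3 of KIF14, the 16-site cluster of SEMA4B and the low cluster of KLHL35 lie below 0 on the vertical axis.

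Within the control diet, CON_P had a higher mean than CON_noP in all 6 genes, by 1.23 points in KIF26A to 19.1 points in KIF14, with overlap in each. The sign turned in KIF26A without S28 (-0.309 points) and in RASIP1 without S16 (-0.0201 points), and NEURL1 moved from 10.9 to 2.60 points without S16. Within the methionine diet, the difference of MET_P to MET_noP was negative in 5 genes, from -1.56 points in KIF26A to -6.53 points in SEMA4B, and positive in NEURL1 at 2.41 points. Without S25 the difference was -1.72 points in SEMA4B and -0.363 points in KIF26A, and without S15 it was 0.565 points in NEURL1. Each of these comparisons shares a group with the contrast that chose the genes, in which CON_noP had to be the lower and MET_noP the higher one, so they are given without a test. Taken over the 6 genes with equal weight, the mean was 52.3% ± 6.91 in CON_noP, 60.6% ± 4.30 in CON_P, 61.9% ± 3.84 in MET_P and 65.6% ± 4.46 in MET_noP (SD, n = 4). In this average the pregnant groups lay between the non-pregnant groups and nearer to MET_noP, which did not hold in each gene. CON_P was nearer to CON_noP in KIF26A and RASIP1, and MET_P was nearer to CON_noP in SEMA4B. In NEURL1, MET_P lay above MET_noP. The choice of the genes set CON_noP low and MET_noP high, so this order is a description.

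Sites of intermediate methylation were frequent in these genes. A mean of 20 to 80% over the 16 libraries was found at 186 of the 317 sites, of which 172 (92.5%) were higher in MET_noP than in CON_noP, with 63.2% of all 68404 intermediate sites of the table in that direction. Since that contrast chose the genes, nothing is read from this share. In MET_P against CON_P, 118 of the 186 (63.4%) were higher, against 51.3% of all intermediate sites. Neighbouring sites share reads and are not independent of each other, and by gene mean 3 of the 6 genes were higher and 3 lower. Libraries of a group are farther apart at intermediate sites in general. Among the 186 sites the median SD was 13.6 points in CON_P and 8.16 in MET_P, beside 11.3 and 8.07 over all intermediate sites of the table. Fewer cells of one type and less methylation in each cell cannot be told apart in such mixed samples.

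The cytosines of a CpG on the opposite strands are measured in separate reads, and adjacent measured positions were taken as such a pair. They formed 30 pairs, of which 17 lay in RASIP1 and 10 in KLHL35. In all 30 the difference between MET_noP and CON_noP had the same sign at both positions, but its size differed, by a median of 17.04 points in RASIP1 and 10.02 points in KLHL35. The genes were chosen on this contrast, so the shared sign is a description and no check by separate reads. In RASIP1 the second position of the pair gave the larger difference in 13 of 17 pairs, with a mean of 23.3 points against 12.3 at the first position. KLHL35 showed the opposite order, with 22.7 points at the first and 14.1 points at the second position and the first larger in 8 of 10 pairs. In RASIP1 all MET_noP libraries lay above all CON_noP libraries at 12 of 17 second positions and 3 of 17 first positions. Of all sites of the table, 1.85% had this pattern. Neighbouring pairs share reads and the contrast chose the genes, so these counts and sizes are a description too.

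Single libraries recurred. S16 had the lowest CON_noP value in 4 of the 6 genes and S17 the lowest MET_noP value in 4, while S15 had the highest MET_P value in 5. These libraries also had the lowest, lowest and highest mean over all sites of the table within their groups, at 61.3%, 62.4% and 64.7%, in a table where the 16 libraries ranged from 61.3 to 65.1%. With the libraries centred on the same median, all 6 genes still had a higher mean in MET_noP than in CON_noP, the direction by which they were chosen. In the 6 clusters with the largest difference between MET_noP and CON_noP, deviations from the group means were most alike between KIF26A and KLHL35 (r = 0.727) and between RASIP1 and SEMA4B (r = 0.643) and least between NEURL1 and SEMA4B (r = -0.182), over 16 libraries. Within a library, all 6 clusters share its depth and cell mix. Library numbers came in 4 consecutive sets with 1 library of each group. Within these sets, MET_noP was above CON_noP in all 4 sets for KIF26A, NEURL1, RASIP1 and KLHL35 and in 3 of 4 for KIF14 and SEMA4B, the exceptions being -10.2 and -0.604 points. These counts too follow the contrast that chose the genes and are a description. MET_P was above CON_P in 3 of 4 sets for KIF26A and NEURL1, in 2 for RASIP1 and KLHL35, in 1 for SEMA4B and in none for KIF14.

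The tissue label cannot be checked against expressed markers in methylation data. Of the marker genes listed for other cells, 12 of 18 leukocyte genes had at least 2 sites. Their mean was 61.6% ± 1.19 in CON_noP and 60.2% ± 1.31 in MET_noP, with libraries from 60.4 to 63.2% and from 59.0 to 62.1%, and it was 61.9% ± 3.71 in CON_P and 63.8% ± 0.856 in MET_P (SD, n = 4). For 7 of 13 epithelial genes the means were 28.1% ± 3.12, 29.5% ± 5.79, 29.9% ± 5.31 and 28.1% ± 2.42 in the same order. The library ranges of both lists overlapped between MET_noP and CON_noP. For the leukocyte list they did not overlap between MET_P, at 62.8 to 64.7%, and MET_noP. Among single genes, 211 of 8719 had all MET_P libraries above all MET_noP libraries. That share is no like background for a list mean, which varied less between libraries. The list had SDs of 0.856 in MET_P and 1.31 in MET_noP, beside medians of 2.24 and 2.66 over all genes. In MET_P against CON_P, 9 of the 12 leukocyte genes were higher, with a median difference of 2.81 points. Over all genes 60.1% were higher, with a median of 0.53 points. Of the 12, 2 had an unadjusted p under 0.05, both higher and neither past the adjustment. Among all genes 7.26% passed that limit, and 5.47% passed it and were higher. The part of the cell mix in the differences above was not tested.

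The families of the 6 genes were compared in MET_P against CON_P. KIF14, KIF26A, KLHL35, SEMA4B and NEURL1 are themselves counted in their lists, and RASIP1 is not. Of 18 kinesins measured, 10 had a higher and 8 a lower mean in MET_P, and none had an unadjusted p under 0.05. Kelch-like genes numbered 16, with 10 higher and 6 lower and none under that limit. The semaphorins had 7 higher and 6 lower of 13, and their receptors, the plexins and neuropilins, 6 higher and 5 lower of 11. In the Notch list, which includes the neuralized ligases, 16 were higher and 9 lower of 25. Partners of RAP1 and RASIP1 had 11 higher and 6 lower of 17. The median differences of the 6 lists ran from 0.204 to 1.22 points, beside 0.53 points over all genes, of which 60.1% were higher in MET_P.

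In these lists 5 of 100 genes had an unadjusted p under 0.05, all higher in MET_P, where 7.26% of all genes passed that limit and 5.47% passed it and were higher, so the lists' share was near that of the table. None passed the Benjamini-Hochberg adjustment of the limma fit over all genes. NEURL1B, a neuralized ligase like NEURL1, was at 59.0 to 74.6% in CON_P and 74.6 to 79.5% in MET_P over 64 sites, a difference of 10.97 points (adjusted p = 0.667). DTX4, a deltex ubiquitin ligase of the Notch pathway, was the only one of the 5 whose groups did not overlap, at 61.3 to 65.4% against 66.8 to 72.6%, a pattern that 3.07% of all genes had in that direction (adjusted p = 0.680). MIB1, a ligase that acts on Notch ligands, differed by 6.04 points over 2 sites (adjusted p = 0.680). SEMA3B, a secreted semaphorin, was higher by 5.99 points (adjusted p = 0.680). RAP1B, the small GTPase of which RASIP1 is an effector, was higher by 18.8 points (adjusted p = 0.680), with 3 CON_P libraries at 14.5 to 18.95% and the fourth at 51.2%, above all of MET_P.

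Over the 16 libraries, the genes whose means ran most like those of the 6 were looked for among 2808 genes with at least 5 sites and a range of at least 10 points. LOXL1 (r = 0.931) and SZRD1 (0.926) were closest to NEURL1, EBF4 (0.921) and DRC3 (0.904) to KIF26A, PPP1R37 (0.900) and HMOX2 (0.886) to KLHL35, and CDX1 (0.884) and STARD10 (0.831) to RASIP1. PRODH (0.937) and the unnamed gene ENSBTAG00000050704 (0.934) were closest to SEMA4B. For KIF14 no gene came above r = 0.776, and both nearest genes were unnamed in the table. All 12 had their lowest group mean in CON_noP, as the 6 genes had, and the likeness was measured on the libraries that also chose the 6.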

How the data were processed

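The authors trimmed RRBS reads with Trim Galore, aligned them with Bismark to ARS-UCD1.2, merged the runs of a library with SAMtools and quantified methylation in SeqMonk. The deposited values are percent methylation per cytosine position and library, not normalized between libraries. Positions with a value of 0 in a library are not in the table.

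Columns were assigned to groups by the group name above them. A percentage was turned into M = log2((percent + 1)/(100 - percent + 1)). MET_P against CON_P was tested with limma 3.58.1 in R 4.3.3 (8 libraries, no trend), over 199395 sites, 8719 gene means or 26894 clusters (gaps of at most 200 bp, at least 3 sites), with Benjamini-Hochberg adjustment and a threshold of 0.05. The fit was tested on simulated data. Summaries, exact tests and figures used Python 3.11.15, numpy 2.4.6, pandas 2.3.3 and matplotlib 3.10.9. The study's logistic regression needs read counts and was not repeated. The 6 genes and the related lists were chosen with earlier results of these data known. Named beside the 6 genes were, per list and direction, up to 3 genes with the lowest unadjusted p under 0.05, and the 2 most similar genes of each. Alternatives changed the scale, offset, trend, centring, samples, filters, strands, cluster gap and summary, and left out each library. Sequences and exons were not analysed here.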

Additional observations from a re-analysis of the deposited data

Results flagged for a closer look

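In 2 of 48 groups of 4 libraries, over gene means and the 6 clusters with the largest difference between MET_noP and CON_noP, 1 library stood apart from the other 3 by a larger share of the range of the group than Dixon's 95% limit allows. Chance gives about 1 in 20 groups. The first was library S30 of CON_P in KIF14, with a gene mean of 95.7%, where the other 3 CON_P libraries lay between 78.3 and 81.1%. The second was S15 of MET_P in KLHL35, at 53.4%, where the other 3 MET_P libraries lay between 45.9 and 46.7%.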

How the results depend on the processing

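In MET_P against CON_P, none of the sites, gene means or clusters of the 6 genes had an adjusted p under 0.05 under any alternative run. The number of sites with an unadjusted p under 0.05 was 15. It was 7 with all 16 libraries in one model and ran from 10 to 24 when single libraries were left out, with the highest count without S30 of CON_P. The number of clusters under that limit was 1, ran from 1 to 3 without single libraries (2 without S18 of CON_P or S27 of MET_P, 3 without S30), and was 0 among clusters of at least 5 sites. Between 3 and 4 genes were higher in MET_P. Without single libraries the difference of KIF14 ran from -0.89 to 0.24 on the log2 scale, positive without S30 alone. It ran from 0.03 to 0.24 in KIF26A, 0.39 to 0.90 in NEURL1, 0.035 to 0.30 in RASIP1 and -0.45 to -0.10 in SEMA4B. KLHL35, near 0 throughout, turned higher under 7 of 17 alternatives, by 0.0032 for sites with a mean of 10 to 90% and by 0.026 for medians, and ran from -0.19 to 0.17 without single libraries. All 6 genes were higher in MET_noP than in CON_noP under every alternative, a direction that the choice of the genes had set on these same libraries. The lists of related genes had 5 genes with an unadjusted p under 0.05, and 5 and 6 with centred libraries and all 16 libraries in one model. No paired analysis was possible because the column headers carry library numbers, not the replicate numbers of the labels; sets of consecutive library numbers as a term gave 12 sites and 1 cluster under an unadjusted p of 0.05. The unknown read depth limits the precision of every single percentage.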
